A study of Homo sapiens with 20 samples.

Results

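The interaction of TGFβ and an siRNA against KLF10 was examined in A549, a human lung adenocarcinoma line. For each gene, the interaction is the TGFβ effect after siKLF10 (siKLF10+TGFb minus siKLF10) minus the TGFβ effect against siCont (TGFb minus siCont), on the log2 scale. A positive value means that the level moved up more, or down less, with TGFβ after siKLF10. All 8 A549 libraries of the 20 in the series were used, 2 lettered A and B in each of 4 groups. The other 12 libraries were of Panc1, a pancreatic ductal carcinoma line, lettered A, B and C in each of the same 4 groups. Their TGFβ dose and time were those given below for A549. The siKLF10+TGFb cells received the siRNA against KLF10 and 5 ng/ml TGFβ for 72 h, and the siKLF10 cells received that siRNA without TGFβ. The TGFb cells received TGFβ at the same dose and time under a label that names no siRNA, and the siCont cells received a control siRNA without TGFβ. Whether the TGFb cells carried the control siRNA is not given. If they did not, an effect of carrying any siRNA cannot be told apart from the interaction. The labels list both lines as SV40 large T antigen immortalized and do not state whether libraries A and B are separate cultures. The p-values therefore describe the spread between libraries, and that spread may be technical.

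TGFβ is a secreted cytokine that signals through paired serine/threonine kinase receptors to SMAD transcription factors. In carcinoma lines such as A549 it is known for driving the epithelial-to-mesenchymal transition (EMT), in which cells lose E-cadherin, gain N-cadherin and matrix proteins, and slow their division. KLF10 is a zinc-finger transcription factor of the Krüppel-like family that is induced early by TGFβ and binds GC-rich DNA.

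Gene counts summed to 6846761 to 19070551 per A549 library, and 14124 of 23368 genes passed the filter on low counts and were tested. All 12 genes of an A549 marker list were tested, with a summed level of 17229 to 33553 CPM (read counts scaled to a common library size). Of markers of other cell types, 4 of 13 lung epithelial, 4 of 6 fibroblast, 1 of 5 endothelial, 1 of 6 blood and 0 of 8 pancreatic genes passed the filter. Summed over each list, the lung markers gave 41.1 to 76.1 CPM, the endothelial 0.262 to 6.39 CPM, the blood 1.31 to 5.51 CPM and the pancreatic 0 to 0.363 CPM per library. The fibroblast sum was 15.4 CPM in siKLF10+TGFb, 2.98 CPM in siKLF10, 11.1 CPM in TGFb and 1.45 CPM in siCont, and its part in the TGFβ effects was not tested. Libraries A and B differed most in the siKLF10+TGFb group, where the SD of their log2 difference over 6671 genes of at least 30 CPM was 0.213, against 0.137 in siKLF10, 0.125 in TGFb and 0.110 in siCont. The 83 ribosomal protein genes summed to 31203 and 26994 CPM in siKLF10+TGFb A and B, 37908 and 35867 CPM in siKLF10, 31471 and 33950 CPM in TGFb, and 36788 and 36879 CPM in siCont. The part of this pair's spread in the results was not tested, and the main counts are given with and without each of its libraries. In bulk RNA, fewer cells of a kind and less RNA per cell cannot be told apart.

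The targeted gene was read first. KLF10 measured 151 and 142 CPM in siKLF10+TGFb, 102 and 109 CPM in siKLF10, 179 and 179 CPM in TGFb, and 110.2 and 107 CPM in siCont. Without TGFβ, the siKLF10 and siCont libraries overlapped (log2 difference −0.05, adjusted p = 0.743), while under TGFβ both siKLF10+TGFb libraries lay below both TGFb libraries (log2 difference −0.29, adjusted p = 0.00775). The KLF10 mRNA therefore did not show a knockdown in the untreated libraries, and "after siKLF10" below means only that a library is labelled siKLF10. KLF10 rose with TGFβ on both arms, by 0.48 ± 0.08 after siKLF10 (log2 ± SE) and by 0.72 ± 0.08 against siCont, and its interaction of −0.24 ± 0.11 was not called (adjusted p = 0.228). A gene was called when its adjusted p was under 0.05, using the quasi-likelihood test of edgeR and Benjamini-Hochberg adjustment over all tested genes.

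The interaction was called for 916 of 14124 genes (6.49%), 460 of them positive (3.26%) and 456 negative (3.23%). An unadjusted p under 0.05 was found for 2804 genes. In the fit over all 20 libraries, which scales A549 together with Panc1, 588 were positive and 315 negative. The differences were mostly modest, with a median absolute log2 interaction of 0.65 among called genes. An interaction of at least 2-fold was called for 106 genes in the positive and 66 in the negative direction, and one of at least 4-fold for 26 and 12. Without siKLF10+TGFb A the count was 2685, and without siKLF10+TGFb B it was 1156. Leaving out 1 library of the other groups gave 379 to 545 calls, with the lowest count without siCont B.

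TGFβ itself moved a large share of the genes on both arms. The effect against siCont was taken from the counts, since the authors' deposited table of that comparison had a correlation of only 0.187 with it across 11095 genes of at least 5 CPM. Its effect was called for 7522 genes after siKLF10 (53.3%), 3741 raised (26.5%) and 3781 lowered (26.8%), and for 6733 genes against siCont (47.7%), 3416 raised (24.2%) and 3317 lowered (23.5%). The siKLF10 difference was called for 3996 genes under TGFβ (28.3%) and for 2758 genes without TGFβ (19.5%). The arms share no libraries. Across the 14124 genes the log2 effects had a Pearson correlation of 0.893 and a principal-axis slope of 1.02 (after siKLF10 over against siCont), given as a description because genes are not independent replicates. Of 2387 genes that TGFβ moved at least 2-fold on the average of both arms, 56.2% had the larger effect after siKLF10, with a median excess of 0.10 on the log2 scale, against 55.3% and 0.04 over all tested genes. The interaction was called for 213 of these (8.92%) in the direction of a larger effect and for 118 (4.94%) in that of a smaller effect. Of all tested genes it was called for 599 (4.24%) and 317 (2.24%), so both directions were more frequent among the 2387 genes. Without siKLF10+TGFb A the share was 57.5%, and without siKLF10+TGFb B it was 54.9%.

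**Figure D1:**
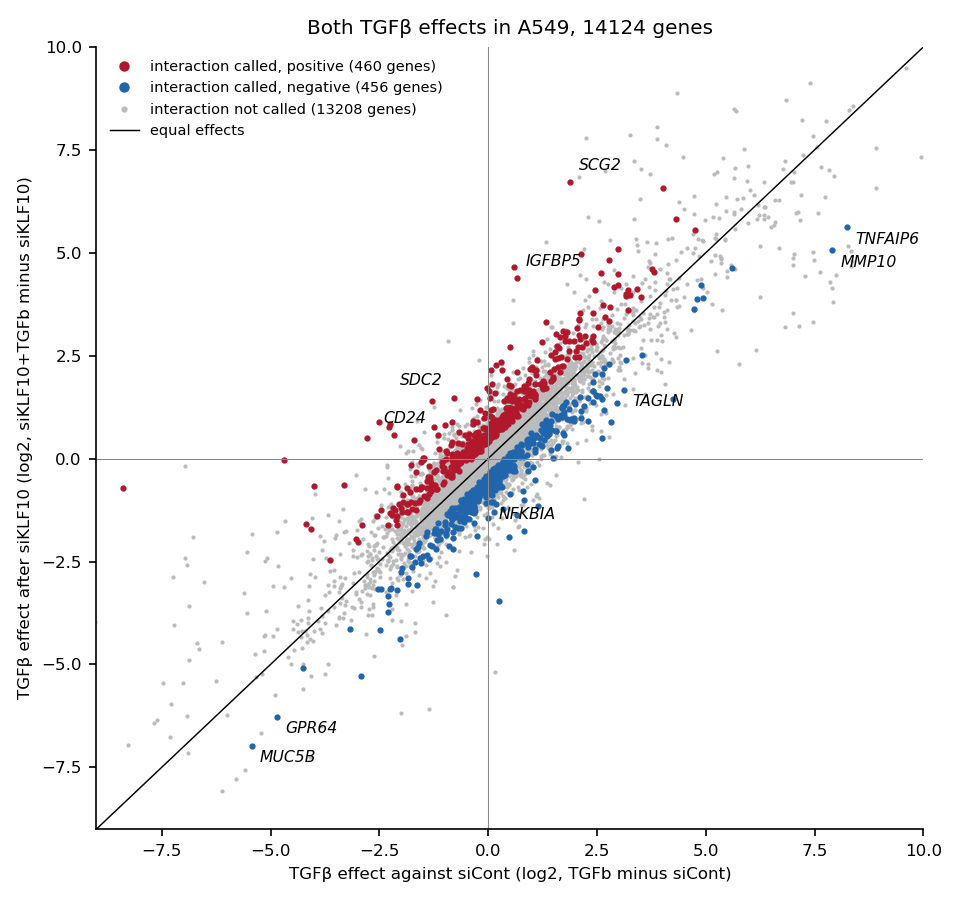
TGFβ effect after siKLF10 (vertical axis, log2) against the TGFβ effect against siCont (horizontal axis, log2) for each of 14124 genes in A549, with the 460 positive and 456 negative called interactions coloured and equal effects on the diagonal. Most genes lie along the diagonal, and SCG2, at 6.71 against 1.88, and MUC5B, at −6.98 against −5.43, are among the named genes away from it.

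The 916 called genes fell into 5 response classes by the calls of the TGFβ effect on each arm. The most frequent class held 330 genes that moved in the same direction on both arms and further after siKLF10. TGFβ moved 241 genes in a called way only after siKLF10, 129 only against siCont, and 169 on both arms but less after siKLF10. The remaining 47 genes moved in opposite directions. Among the 460 positive genes the highest of the 4 group means was siKLF10+TGFb for 299 (65.0%) and siCont for 136 (29.6%). Among the 456 negative genes the lowest was siKLF10+TGFb for 288 (63.2%) and siCont for 132 (28.95%). Over all tested genes siKLF10+TGFb was the highest for 30.1% and the lowest for 30.3%, and siCont for 26.9% and 26.5%. The siCont shares among called genes were thus near those over all genes. The siKLF10+TGFb and siCont levels enter a positive interaction with a plus sign, so the choice of genes favours these groups and the counts are a description only. For siKLF10+TGFb they were 305 and 297 without its library A, and 286 and 283 without its library B.

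The genes named from here on for the size of their interaction averaged at least 5 CPM over the 8 libraries. SCG2, which encodes the granin secretogranin II, measured 182 and 257 CPM in siKLF10+TGFb, 2.08 and 2.09 CPM in siKLF10, 4.73 and 4.01 CPM in TGFb, and 1.02 and 1.40 CPM in siCont. It was high in both siKLF10+TGFb libraries and low in the 6 others. TGFβ raised it 105-fold after siKLF10 and 3.69-fold against siCont, an interaction of 4.83 ± 0.60 (adjusted p = 0.00059). IGFBP5, a binding protein of insulin-like growth factors, measured 70.3 and 83.5 CPM in siKLF10+TGFb, 3.38 and 4.18 CPM in siKLF10, 9.95 and 6.68 CPM in TGFb, and 5.29 and 5.51 CPM in siCont. Its high group was again siKLF10+TGFb, with no overlap with the others. TGFβ raised it 20.8-fold after siKLF10 and 1.58-fold against siCont (interaction 3.72 ± 0.28, adjusted p = 7.84e-08). ADORA1, the adenosine A1 receptor, measured 35.8 and 37.9 CPM in siKLF10+TGFb, 0.955 and 1.26 CPM in siKLF10, 7.94 and 8.61 CPM in TGFb, and 0.943 and 1.14 CPM in siCont. The untreated groups overlapped, and the TGFβ effect was 34.1-fold after siKLF10 and 7.90-fold against siCont (interaction 2.11 ± 0.41, adjusted p = 0.00287).

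KCNE4, a potassium channel subunit, and SLCO5A1, an organic anion transporter family member, had the same form but stood near 0 without TGFβ. KCNE4 had 4 and 8 reads in siKLF10 and 5 and 3 reads in siCont. The ratio of summed counts was 32.1 after siKLF10 (95% exact counting interval 18.3 to 62.6) and 4.54 against siCont (1.97 to 11.7). SLCO5A1 had 2 and 2 reads in siKLF10 and 9 and 3 reads in siCont. Its ratios were 101 after siKLF10 (39.2 to 371) and 16.6 against siCont (9.21 to 33.0). Intervals and floors cover counting error only. Their interactions, of 2.82 ± 0.79 for KCNE4 (adjusted p = 0.0344) and 2.54 ± 0.72 for SLCO5A1 (adjusted p = 0.0375), were not called when siCont A, either TGFb library or siKLF10 A was left out. KCNE4 also lost its call without siCont B, and SLCO5A1 without siKLF10 B, with DESeq2 and with limma-voom. Over all alternatives the adjusted p reached 0.284 for KCNE4 and 0.496 for SLCO5A1.

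A further set rose with TGFβ in a called way only after siKLF10. KALRN, a guanine nucleotide exchange factor, measured 14.8 and 13.1 CPM in siKLF10+TGFb, 2.17 and 1.95 CPM in siKLF10, 3.02 and 2.52 CPM in TGFb, and 2.03 and 1.92 CPM in siCont. Its siKLF10+TGFb libraries stood above all others (TGFβ effect 2.72 ± 0.21 after siKLF10 and 0.50 ± 0.28 against siCont, with an interaction of 2.22 ± 0.37, adjusted p = 0.000745). EMILIN2, an extracellular matrix glycoprotein, measured 14.1 and 14.8 CPM in siKLF10+TGFb, 2.43 and 3.77 CPM in siKLF10, 4.93 and 5.79 CPM in TGFb, and 4.42 and 4.99 CPM in siCont. Its TGFb and siCont ranges overlapped, and the interaction was 2.11 ± 0.31 (adjusted p = 0.000204). ANPEP, the cell-surface aminopeptidase N, measured 10.2 and 11.6 CPM in siKLF10+TGFb, 2.08 and 3.07 CPM in siKLF10, 5.63 and 8.01 CPM in TGFb, and 6.82 and 5.86 CPM in siCont. Here the siKLF10 pair was the low one, at a log2 difference of −1.36 from siCont (adjusted p = 0.000612), and the interaction of 2.09 ± 0.32 (adjusted p = 0.00034) combined that with the higher siKLF10+TGFb level.

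**Figure D2:**
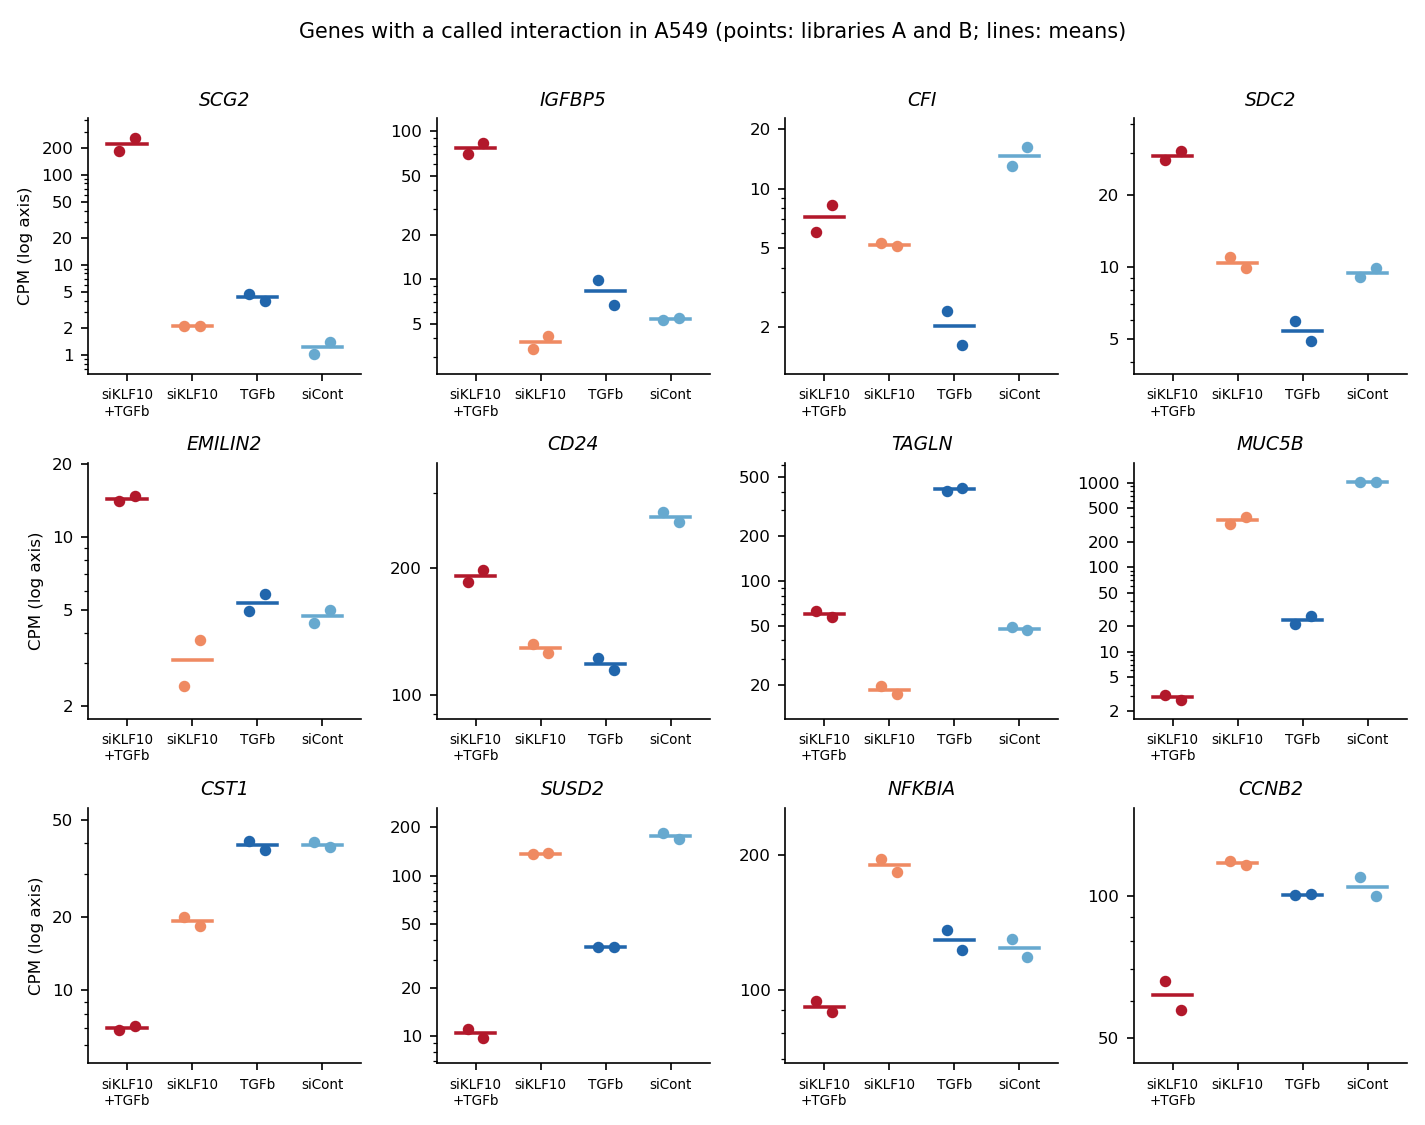
CPM (log axis) of 12 genes with a called interaction in the siKLF10+TGFb, siKLF10, TGFb and siCont libraries of A549, with points for libraries A and B and lines for group means. SCG2, IGFBP5, SDC2 and EMILIN2 are highest in siKLF10+TGFb, MUC5B, CST1, SUSD2, NFKBIA and CCNB2 are lowest there, and TAGLN is highest in TGFb.

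Positive interactions also arose where TGFβ lowered a gene less, or not at all, after siKLF10. CFI, a protease of the complement system, measured 6.07 and 8.28 CPM in siKLF10+TGFb, 5.29 and 5.16 CPM in siKLF10, 2.41 and 1.63 CPM in TGFb, and 13.0 and 16.2 CPM in siCont. The siCont pair was the high one and the TGFb pair the low one. TGFβ lowered CFI 6.91-fold against siCont, while its effect after siKLF10 was 0.50 ± 0.21 on the log2 scale and not called (interaction 3.28 ± 0.33, adjusted p = 1.99e-06). In FRMD3, which encodes a FERM-domain protein, the levels were 14.8 and 16.1 CPM in siKLF10+TGFb, 18.1 and 16.2 CPM in siKLF10, 11.1 and 9.94 CPM in TGFb, and 39.2 and 32.5 CPM in siCont. Its siCont pair was the high one, and the interaction was 1.62 ± 0.20 (adjusted p = 2.99e-05). SLC23A1, a vitamin C transporter, fell 3.26-fold after siKLF10 and 16.7-fold against siCont (interaction 2.36 ± 0.51, adjusted p = 0.00674), and its call was lost without TGFb A (adjusted p = 0.0982).

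Among the 47 genes that moved in opposite directions, the 4 with the largest interactions at an average of at least 5 CPM were all positive. SDC2, the heparan sulfate proteoglycan syndecan-2, measured 28.0 and 30.8 CPM in siKLF10+TGFb, 11.02 and 9.90 CPM in siKLF10, 5.93 and 4.90 CPM in TGFb, and 9.06 and 9.88 CPM in siCont. The untreated pairs differed little, and the 2 treated pairs lay on either side of them (TGFβ effect 1.48 ± 0.14 after siKLF10 and −0.78 ± 0.18 against siCont, interaction 2.27 ± 0.22, adjusted p = 1.99e-06). CD24, a surface glycoprotein used as an epithelial marker, measured 185 and 198 CPM in siKLF10+TGFb, 132 and 126 CPM in siKLF10, 122 and 115 CPM in TGFb, and 271 and 256 CPM in siCont. It was raised 1.48-fold by TGFβ after siKLF10 and lowered 2.22-fold against siCont, and untreated siKLF10 cells held less of it than siCont cells (interaction 1.72 ± 0.11, adjusted p = 1.09e-08). ST6GAL2, a sialyltransferase, and KCNJ16, a potassium channel, had interactions of 1.81 ± 0.24 (adjusted p = 7.57e-05) and 1.72 ± 0.30 (adjusted p = 0.00117).

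The largest negative interactions were mostly of 2 kinds. In the first, TGFβ lowered the gene further after siKLF10. MUC5B, a gel-forming airway mucin, measured 3.04 and 2.71 CPM in siKLF10+TGFb, 324 and 392 CPM in siKLF10, 21.1 and 26.4 CPM in TGFb, and 1014 and 1016 CPM in siCont. No groups overlapped, and TGFβ lowered it 126-fold after siKLF10 and 43.2-fold against siCont (interaction −1.54 ± 0.20, adjusted p = 8.69e-05). SUSD2, a sushi-domain membrane protein, measured 11.1 and 9.80 CPM in siKLF10+TGFb, 136 and 138 CPM in siKLF10, 35.8 and 35.8 CPM in TGFb, and 183 and 170.2 CPM in siCont. It was lowest in siKLF10+TGFb, after a fall of 13.2-fold with TGFβ after siKLF10 and of 4.94-fold against siCont (interaction −1.42 ± 0.14, adjusted p = 1.99e-06). CST1, cystatin SN, measured 6.88 and 7.15 CPM in siKLF10+TGFb, 19.96 and 18.4 CPM in siKLF10, 40.9 and 37.7 CPM in TGFb, and 40.5 and 38.5 CPM in siCont. The TGFb and siCont ranges overlapped, and TGFβ lowered CST1 2.74-fold after siKLF10 (interaction −1.45 ± 0.17, adjusted p = 2.07e-05).

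GPR64, an adhesion G protein-coupled receptor, FA2H, a fatty acid hydroxylase, and GGT5, a gamma-glutamyltransferase family member, were also lowered further after siKLF10. GPR64 measured 1.62 and 0.866 CPM in siKLF10+TGFb, 87.0 and 90.1 CPM in siKLF10, 3.22 and 2.82 CPM in TGFb, and 88.1 and 88.8 CPM in siCont (interaction −1.42 ± 0.31, adjusted p = 0.00694). FA2H and GGT5 had interactions of −1.68 ± 0.40 (adjusted p = 0.0131) and −2.36 ± 0.55 (adjusted p = 0.0112), and GGT5 stood on 3 and 3 reads in siKLF10+TGFb. None of these 3 kept its call without siKLF10+TGFb B. GPR64 and FA2H also lost it without TGFb A, and GGT5 without TGFb B, with an adjusted p of up to 0.163 for GPR64, 0.264 for FA2H and 0.117 for GGT5. H19, an imprinted long non-coding RNA, measured 3.84 and 4.55 CPM in siKLF10+TGFb, 11.5 and 10.3 CPM in siKLF10, 5.03 and 10.5 CPM in TGFb, and 4.496 and 4.90 CPM in siCont. Its TGFb libraries lay apart, A close to siCont and B inside the siKLF10 range, and its interaction of −2.02 ± 0.36 (adjusted p = 0.00276) was not called in the fit over all 20 libraries (adjusted p = 0.151).

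In the second kind, TGFβ raised the gene less after siKLF10. TAGLN, the actin-binding protein transgelin of smooth muscle and myofibroblasts, measured 62.9 and 57.2 CPM in siKLF10+TGFb, 19.8 and 17.4 CPM in siKLF10, 406 and 425 CPM in TGFb, and 49.0 and 46.6 CPM in siCont. The TGFb pair stood far above the others, and siKLF10 libraries were the lower ones both with and without TGFβ. TGFβ raised TAGLN 3.19-fold after siKLF10 and 8.68-fold against siCont (interaction −1.45 ± 0.13, adjusted p = 1.25e-06). CD70, a ligand of the TNF family, measured 15.2 and 14.8 CPM in siKLF10+TGFb, 7.20 and 5.86 CPM in siKLF10, 20.3 and 20.6 CPM in TGFb, and 3.19 and 3.24 CPM in siCont. Its level without TGFβ was higher in siKLF10 than in siCont, and TGFβ raised it 2.25-fold after siKLF10 and 6.35-fold against siCont (interaction −1.50 ± 0.24, adjusted p = 0.00059). MMP10, the matrix metalloproteinase stromelysin-2, and TNFAIP6, a hyaluronan-binding protein, had the most negative interactions at this level but hardly any reads in siCont. MMP10 measured 29.3 and 31.8 CPM in siKLF10+TGFb, 0.955 and 0.837 CPM in siKLF10, 52.9 and 47.2 CPM in TGFb, and 2 and 3 reads in siCont. The ratio of its summed counts was 34.1 after siKLF10 (95% exact counting interval 21.1 to 58.7) and 255 against siCont (109 to 788), and its interaction of −2.84 ± 0.58 (adjusted p = 0.00403) was not called without siKLF10 A (adjusted p = 0.0780). TNFAIP6 had 80.7 and 89.3 CPM in siKLF10+TGFb, 1.56 and 1.95 CPM in siKLF10, 73.9 and 77.2 CPM in TGFb, and 2 and 4 reads in siCont (interaction −2.62 ± 0.48, adjusted p = 0.00182). For TNFAIP6 the treated groups lay close together, so the difference between arms came from the untreated levels.

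The genes by which EMT is usually followed moved with TGFβ on both arms, and of the 7 described in this paragraph none had a called interaction. FN1, of the same fixed set, did have one, at 0.92 ± 0.12, and is described below. The mesenchymal list members TAGLN, NT5E and TNC were among those of their list with called interactions. CDH1, E-cadherin, measured 38.0 and 38.8 CPM in siKLF10+TGFb, 251 and 269.7 CPM in siKLF10, 44.5 and 37.8 CPM in TGFb, and 320.0 and 324 CPM in siCont. Its treated groups overlapped, TGFβ lowered it 6.77-fold after siKLF10 and 7.77-fold against siCont, and the interaction was 0.20 ± 0.12 (adjusted p = 0.409). CDH2, N-cadherin, measured 307 and 325 CPM in siKLF10+TGFb, 72.5 and 67.6 CPM in siKLF10, 210.4 and 198 CPM in TGFb, and 57.9 and 52.1 CPM in siCont. Its groups did not overlap, and the interaction was 0.28 ± 0.12 (adjusted p = 0.182). The transcription factors SNAI1, SNAI2 and ZEB1, which repress E-cadherin, were raised by TGFβ on both arms, with interactions of −0.56 ± 0.23 (adjusted p = 0.178), 1.16 ± 0.48 (adjusted p = 0.176) and 0.39 ± 0.17 (adjusted p = 0.207). SNAI2 measured 18.2 and 20.8 CPM in siKLF10+TGFb, 1.13 and 1.26 CPM in siKLF10, 5.83 and 4.75 CPM in TGFb, and 0.798 and 0.612 CPM in siCont. SMAD7, the inhibitory SMAD induced by TGFβ, rose 3.11-fold after siKLF10 and 2.89-fold against siCont (interaction 0.11 ± 0.13, adjusted p = 0.725). VIM, the intermediate filament vimentin, measured 1129.7 and 947 CPM in siKLF10+TGFb, 548 and 556 CPM in siKLF10, 1764 and 1819.8 CPM in TGFb, and 747 and 752 CPM in siCont. Its interaction of −0.35 ± 0.11 had an adjusted p of 0.0785. Without siKLF10+TGFb A, the interactions of VIM (adjusted p = 7.55e-05), ZEB1 (adjusted p = 0.00378) and CDH2 (adjusted p = 0.0306) were called.

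**Figure D3:**
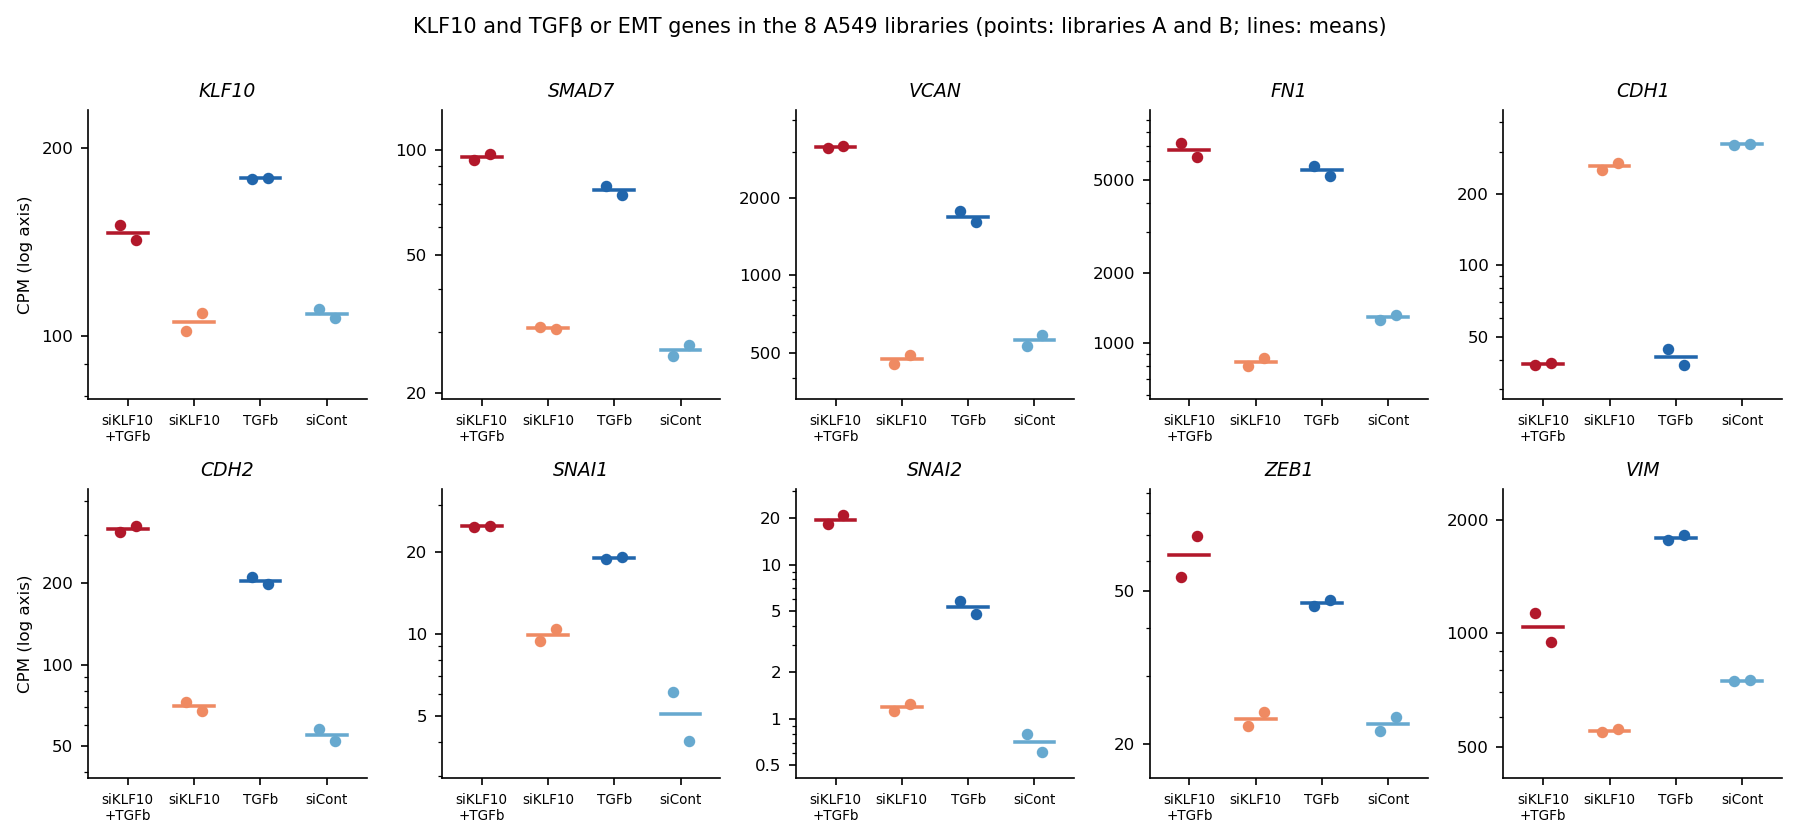
CPM (log axis) of KLF10 and 9 TGFβ or EMT genes in the siKLF10+TGFb, siKLF10, TGFb and siCont libraries of A549, with points for libraries A and B and lines for group means. CDH1 is low and CDH2, SNAI2, FN1 and VCAN are high in both groups that received TGFβ, and KLF10 overlaps between siKLF10 and siCont.

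Matrix and adhesion genes had called interactions in both directions. FN1, fibronectin, measured 7163 and 6260.2 CPM in siKLF10+TGFb, 801 and 867 CPM in siKLF10, 5756 and 5222 CPM in TGFb, and 1256 and 1326 CPM in siCont. Both ends of its range belonged to libraries labelled siKLF10, and TGFβ raised it 8.05-fold after siKLF10 and 4.25-fold against siCont (interaction 0.92 ± 0.12, adjusted p = 5.83e-05). VCAN, the proteoglycan versican, measured 3110.2 and 3179 CPM in siKLF10+TGFb, 455 and 492 CPM in siKLF10, 1774 and 1601 CPM in TGFb, and 532 and 587 CPM in siCont. It had the same order of groups (interaction 1.14 ± 0.11, adjusted p = 1.99e-06). NT5E, the ecto-nucleotidase CD73, was raised 18.0-fold by TGFβ after siKLF10 and 7.48-fold against siCont (interaction 1.26 ± 0.14, adjusted p = 5.84e-06). TNC, the matrix glycoprotein tenascin-C, had an interaction of 1.48 ± 0.33 (adjusted p = 0.00858) that was not called without siCont A, TGFb A or siKLF10 A, with an adjusted p of up to 0.206. COL6A3, a chain of type VI collagen, was raised 2.71-fold after siKLF10 and 6.15-fold against siCont (interaction −1.18 ± 0.33, adjusted p = 0.0361). COL6A3 means were 10.6 CPM in siKLF10+TGFb and 9.10 CPM in TGFb, but 3.97 CPM in siKLF10 and 1.45 CPM in siCont. The arms thus differed mainly in the untreated level. Its call was lost with DESeq2, with limma-voom, in the fit over all 20 libraries, without siKLF10+TGFb B and without any 1 of the 6 libraries of the other groups, with an adjusted p of up to 0.200. Among 38 tested matrix genes 6 interactions were called positive (15.8%) and 4 negative (10.5%), against 3.26% and 3.23% of all tested genes. The median interaction was −0.05, against −0.01 over all tested genes.

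Integrins, the receptors for these matrix proteins, were called positive for 4 (28.6%) and negative for 2 (14.3%) of 14 tested genes, with a median of −0.06. ITGB6, the epithelial integrin beta-6 chain that can activate latent TGFβ, measured 37.2 and 34.2 CPM in siKLF10+TGFb, 0.868 and 1.81 CPM in siKLF10, 37.6 and 35.5 CPM in TGFb, and 3.99 and 6.82 CPM in siCont. Its treated groups lay together and its untreated groups apart (interaction 2.05 ± 0.37, adjusted p = 0.00242), and the call was lost without siKLF10 A (adjusted p = 0.0836). Of 30 tested epithelial genes, 4 interactions were called positive (13.3%) and 3 negative (10.0%), with a median of 0.02. JUP, the junction protein plakoglobin, DSP, the desmosomal protein desmoplakin, and F11R, the tight junction protein JAM-A, had interactions of 0.61 ± 0.11 (adjusted p = 0.00113), 0.61 ± 0.12 (adjusted p = 0.00403) and 0.60 ± 0.11 (adjusted p = 0.00218). All 3 were highest in siKLF10+TGFb. ELF3, an epithelial ETS transcription factor, measured 39.1 and 34.4 CPM in siKLF10+TGFb, 295 and 303 CPM in siKLF10, 80.0 and 73.2 CPM in TGFb, and 278 and 269 CPM in siCont. It fell 8.19-fold with TGFβ after siKLF10 and 3.56-fold against siCont (interaction −1.20 ± 0.12, adjusted p = 1.99e-06). A list of 29 tested TGFβ target genes had 0 positive and 6 negative calls (20.7%), against 3.26% and 3.23% of all tested genes, with a median of −0.16. The 6 became 10 without siKLF10+TGFb A, 5 without siKLF10+TGFb B, 2 in the fit over all 20 libraries, and 1 to 3 without 1 of the 6 other libraries. After siKLF10 TGFβ raised 23 of the 29 and lowered 6, and against siCont it raised 23 and lowered 5. Of all tested genes it raised 26.5% and lowered 26.8% after siKLF10, and 24.2% and 23.5% against siCont.

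Cell cycle genes made up the most one-sided of the lists. Of 33 tested members the interaction was called negative for 19 (57.6%) and positive for 0, against 3.23% and 3.26% of all tested genes, and the sign was negative for 31. The median was −0.43. TGFβ lowered 29 of the 33 after siKLF10 and raised 3, and against siCont it lowered 11 and raised 4. Of all tested genes it lowered 26.8% after siKLF10 and 23.5% against siCont. Without siKLF10+TGFb A the interaction was called negative for 25, and without siKLF10+TGFb B for 22. It was called negative for 7 without siKLF10 A, 8 without siCont B, 10 without siCont A, 10 without TGFb A, 12 without TGFb B and 16 without siKLF10 B. CCNB2, the mitotic cyclin B2, measured 65.9 and 57.3 CPM in siKLF10+TGFb, 118 and 116 CPM in siKLF10, 100.2 and 101 CPM in TGFb, and 109 and 99.6 CPM in siCont. CDC20, an activator of the anaphase-promoting complex, measured 64.5 and 48.2 CPM in siKLF10+TGFb, 90.1 and 81.3 CPM in siKLF10, 96.0 and 104 CPM in TGFb, and 86.6 and 82.7 CPM in siCont. In both genes the siKLF10+TGFb pair was below all other libraries, with interactions of −0.88 ± 0.13 (adjusted p = 0.00018) for CCNB2 and −0.86 ± 0.16 (adjusted p = 0.00246) for CDC20. KIF20A, a mitotic kinesin, and AURKB, the Aurora B kinase, had interactions of −0.84 ± 0.15 (adjusted p = 0.00168) and −0.81 ± 0.13 (adjusted p = 0.000596). AURKB was lowered by TGFβ after siKLF10, by 0.55 on the log2 scale, and raised by 0.25 against siCont. The 2 members whose sign was not negative, named here after their values were seen, were the G1 cyclins CCND1, at 0.06 ± 0.11 (adjusted p = 0.815), and CCNE1, at 0.01 ± 0.15 (adjusted p = 0.977).

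The 250 bases before the start site of CCNB2 and CDC20 are shown because the pair had the largest cell cycle interactions and because cell cycle promoters are known for the cell cycle genes homology region, TTTGAA, and the CCAAT box. They are from RefSeq's promoter table (build GRCh38.p14), 5′ to 3′ on the gene's strand, with TTTGAA and CCAAT on either strand in capitals, and no match of one overlaps a match of the other.
CCNB2 (chr15:59104896-59105145, plus strand): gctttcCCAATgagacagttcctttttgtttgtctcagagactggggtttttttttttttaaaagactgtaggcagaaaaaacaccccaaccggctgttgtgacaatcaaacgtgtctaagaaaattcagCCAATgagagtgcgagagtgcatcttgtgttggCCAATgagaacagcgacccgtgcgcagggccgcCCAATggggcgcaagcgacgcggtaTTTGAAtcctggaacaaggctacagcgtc
CDC20 (chr1:43358731-43358980, plus strand): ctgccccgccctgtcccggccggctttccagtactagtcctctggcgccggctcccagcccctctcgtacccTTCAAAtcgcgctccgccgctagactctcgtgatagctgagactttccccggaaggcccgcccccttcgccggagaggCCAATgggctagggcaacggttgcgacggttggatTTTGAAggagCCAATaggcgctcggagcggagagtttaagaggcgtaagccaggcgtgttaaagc

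In the 27 of 33 cell cycle members with a promoter in the table (81.8%), TTTGAA was found on either strand of the 300 bases around the start site in 9 (33.3%) and CCAAT in 21 (77.8%). Over all 27305 promoters of the table the shares were 15.4% and 35.7%. These motifs were chosen after the list counts were known, and a match is a description of the letters only. The shares are of the whole list and do not tie either motif to the interaction. Only 78.9% of the 19 members called negative had a promoter, too few to set them against the others.

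**Figure D4:**
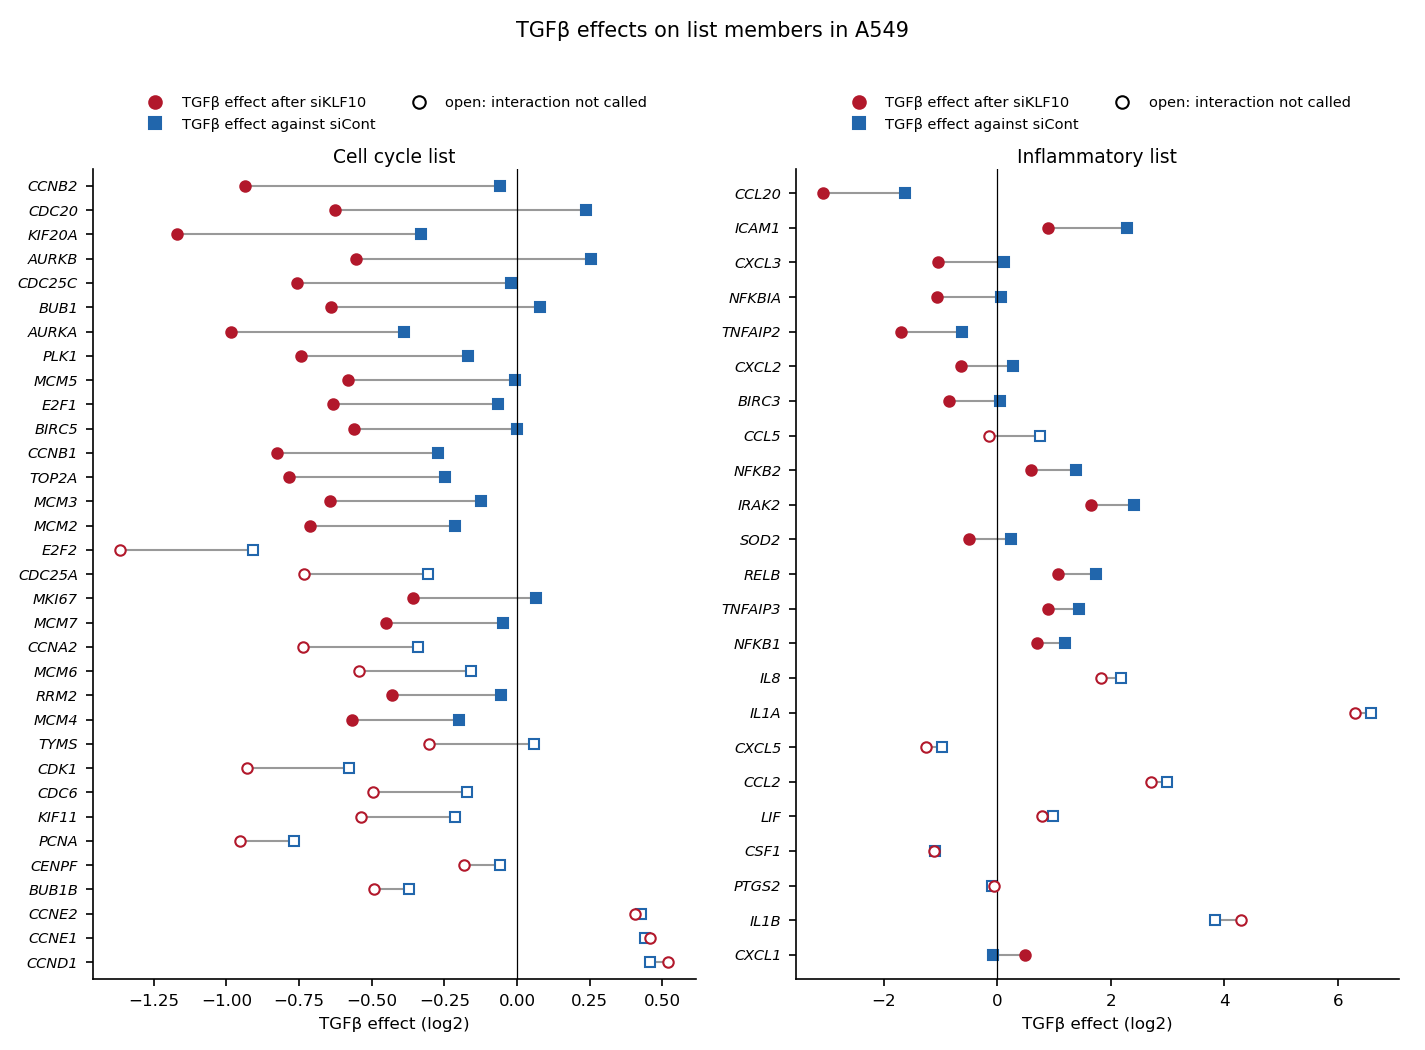
TGFβ effect (horizontal axis, log2) after siKLF10 (circles) and against siCont (squares) for each tested member of the cell cycle list and of the inflammatory list in A549, with filled symbols for called interactions and without members that had a group at 0. In the cell cycle list 29 of 33 members were lowered after siKLF10, against 26.8% of all tested genes. In the inflammatory list 13 of the 14 called interactions are negative.

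Inflammatory genes, many of them targets of the transcription factor NF-κB, had the second-highest number of negative calls. Of 25 tested members the interaction was called negative for 13 (52.0%) and positive for 1 (4.0%), against 3.23% and 3.26% of all tested genes. The median was −0.68, against −0.01 over all tested genes. The 13 became 14 without siKLF10+TGFb A, 15 without siKLF10+TGFb B, and 7 to 11 without 1 of the other libraries, the lowest without TGFb B. NFKBIA, the inhibitor that holds NF-κB in the cytoplasm and is itself induced by it, measured 94.2 and 89.1 CPM in siKLF10+TGFb, 196 and 183 CPM in siKLF10, 136 and 123 CPM in TGFb, and 129.7 and 119 CPM in siCont. The siKLF10 pair was the highest and the siKLF10+TGFb pair the lowest, while TGFb and siCont overlapped (interaction −1.11 ± 0.12, adjusted p = 5.37e-06). ICAM1, an adhesion molecule for leukocytes, measured 11.6 and 14.8 CPM in siKLF10+TGFb, 6.68 and 7.95 CPM in siKLF10, 25.9 and 23.0 CPM in TGFb, and 5.22 and 4.81 CPM in siCont. TGFβ raised it 1.87-fold after siKLF10 and 4.88-fold against siCont (interaction −1.39 ± 0.25, adjusted p = 0.00134). The chemokines CCL20 and CXCL3 had interactions of −1.43 ± 0.30 (adjusted p = 0.0045) and −1.16 ± 0.28 (adjusted p = 0.0125). CCL20 lost its call without TGFb B (adjusted p = 0.0621), and CXCL3 without siCont A, TGFb A or siKLF10 B and with DESeq2 (adjusted p of up to 0.109). The 1 positive member was CXCL1, a chemokine of the same family as CXCL3, at 0.56 ± 0.15 (adjusted p = 0.0227), named here after its value was seen.

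The same 250 bases are shown for NFKBIA and for the chemokine CXCL2, a called member at −0.92 ± 0.22 (adjusted p = 0.015) picked for this after its value was seen, because κB sites near the start site are known to bind NF-κB. The strand and build are given as above, and the capitals mark matches to the κB motif on either strand, which overlap each other in CXCL2.
NFKBIA (chr14:35404750-35404999, minus strand): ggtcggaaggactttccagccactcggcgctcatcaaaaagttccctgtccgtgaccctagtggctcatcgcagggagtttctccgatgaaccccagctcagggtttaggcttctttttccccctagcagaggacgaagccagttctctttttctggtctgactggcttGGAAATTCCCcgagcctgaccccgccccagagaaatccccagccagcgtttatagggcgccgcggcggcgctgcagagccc
CXCL2 (chr4:74099196-74099445, minus strand): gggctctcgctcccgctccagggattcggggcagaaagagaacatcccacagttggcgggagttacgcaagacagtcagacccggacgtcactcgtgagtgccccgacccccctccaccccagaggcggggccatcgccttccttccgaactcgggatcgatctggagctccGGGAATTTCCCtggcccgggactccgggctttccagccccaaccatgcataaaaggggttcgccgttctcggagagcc

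In the 20 of 25 inflammatory members with a promoter in the table (80.0%), the κB motif was found on either strand in 10. Over all 27305 promoters the share was 5.72%. This motif was also chosen after the list counts were known. Its share too is of the whole list, since only 66.7% of the members not called negative had a promoter. Of all tested genes only 76.0% had a promoter in the table, and of the 460 positive and 456 negative genes 79.6% and 76.3%, so a check of the GC box GGGCGG, the CACCC-type box GGGTGGG, the SMAD palindrome GTCTAGAC and the AP-1 site TGANTCA over all called genes is void, because under 80% had a sequence.

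In the lists that follow, the shares called stand against 3.26% positive and 3.23% negative of all tested genes. Of 22 tested p53 target genes, 1 interaction was called positive (4.55%) and 6 negative (27.3%), with a median of −0.18. GDF15, a secreted stress cytokine of the TGFβ family, was lowered 9.04-fold by TGFβ after siKLF10 and 4.75-fold against siCont (interaction −0.93 ± 0.21, adjusted p = 0.00899). Its call was lost without siCont B, TGFb A or siKLF10 A and in the fit over all 20 libraries, with an adjusted p of up to 0.1297. Of 24 tested hypoxia and glycolysis genes, 1 was called positive (4.17%) and 5 negative (20.8%), with a median of −0.07. CA9, the hypoxia-induced carbonic anhydrase IX, was lowered 2.31-fold after siKLF10 and 4.52-fold against siCont (interaction 0.97 ± 0.26, adjusted p = 0.0344). Its call was lost without siKLF10+TGFb B, siKLF10 A or any 1 of the TGFb and siCont libraries, with an adjusted p of up to 0.183. SLC2A3, the glucose transporter GLUT3, measured 407 and 388 CPM in siKLF10+TGFb, 317 and 320.3 CPM in siKLF10, 240.1 and 239 CPM in TGFb, and 98.8 and 103 CPM in siCont. Its siCont pair was the low one, and the interaction was −0.93 ± 0.10 (adjusted p = 8.32e-06). ADM, the peptide hormone adrenomedullin, was lowered 2.35-fold after siKLF10 and 1.32-fold against siCont (interaction −0.83 ± 0.13, adjusted p = 0.000319). Of 25 tested NRF2 target and detoxification genes, 1 was called positive (4.0%) and 4 negative (16.0%), with a median of −0.24. Among the negative ones were the cytochromes CYP4F11, at −1.27 ± 0.16 (adjusted p = 2.99e-05), and CYP1B1, at −0.85 ± 0.16 (adjusted p = 0.00179).

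In the remaining lists the calls numbered 3 positive (13.0%) and 1 negative (4.35%) of 23 mesenchymal genes, 0 and 1 of 12 EMT transcription factors, 0 and 2 (6.67%) of 30 interferon-stimulated genes, and 2 and 2 (10.5% each) of 19 immediate early genes. They were 0 and 1 of 16 KLF and SP factors, 1 and 1 of 24 cholesterol genes, 3 (12.5%) and 2 (8.33%) of 24 unfolded protein response and ATF4 targets, and 3 and 1 of 15 liver-type secretory genes. In these lists of 12 to 30 tested genes a single call is already at or above the share over all tested genes. Among the cell type lists, the A549 list had 1 positive and 1 negative call of 12, and the lung, fibroblast, endothelial and blood lists had 0 calls of 4, 4, 1 and 1 tested genes.

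The interaction in A549 was set beside that in Panc1 by a test of the difference in 1 model over all 20 libraries. The difference was called for 601 of 15058 genes (3.99%). Below, the differences and the Panc1 values come from that model, and the A549 values from the 8 A549 libraries alone, so a difference need not equal the gap between them. SCG2 had an interaction of 4.83 ± 0.60 in A549 and 0.12 ± 0.27 in Panc1, a difference of 4.76 ± 0.58 (adjusted p = 7.59e-06). For IGFBP5 it was 3.72 ± 0.28 in A549 and −0.31 ± 0.48 in Panc1, a difference of 4.08 ± 0.61 (adjusted p = 0.000104). CD24 had 1.72 ± 0.11 in A549 and −0.42 ± 0.10 in Panc1, a difference of 2.20 ± 0.15 (adjusted p = 2.21e-11). In TAGLN the values were −1.45 ± 0.13 in A549 and −0.05 ± 0.25 in Panc1, a difference of −1.34 ± 0.29 (adjusted p = 0.00477). Of the 62 genes named here, the difference was called for 28, among them SDC2, FN1, VIM and SUSD2, while those for KLF10, CDH1, CDH2, SNAI1, SNAI2, ZEB1 and SMAD7 were not. Many of the 62 were named for a large interaction in these same A549 libraries. That choice favours a called difference, so the count is a description only. KLF10 mRNA had interactions of −0.24 ± 0.11 in A549 and −0.19 ± 0.09 in Panc1. How far siKLF10 lowered KLF10 was not compared between the lines, and its part in these differences was not tested.

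**Figure D5:**
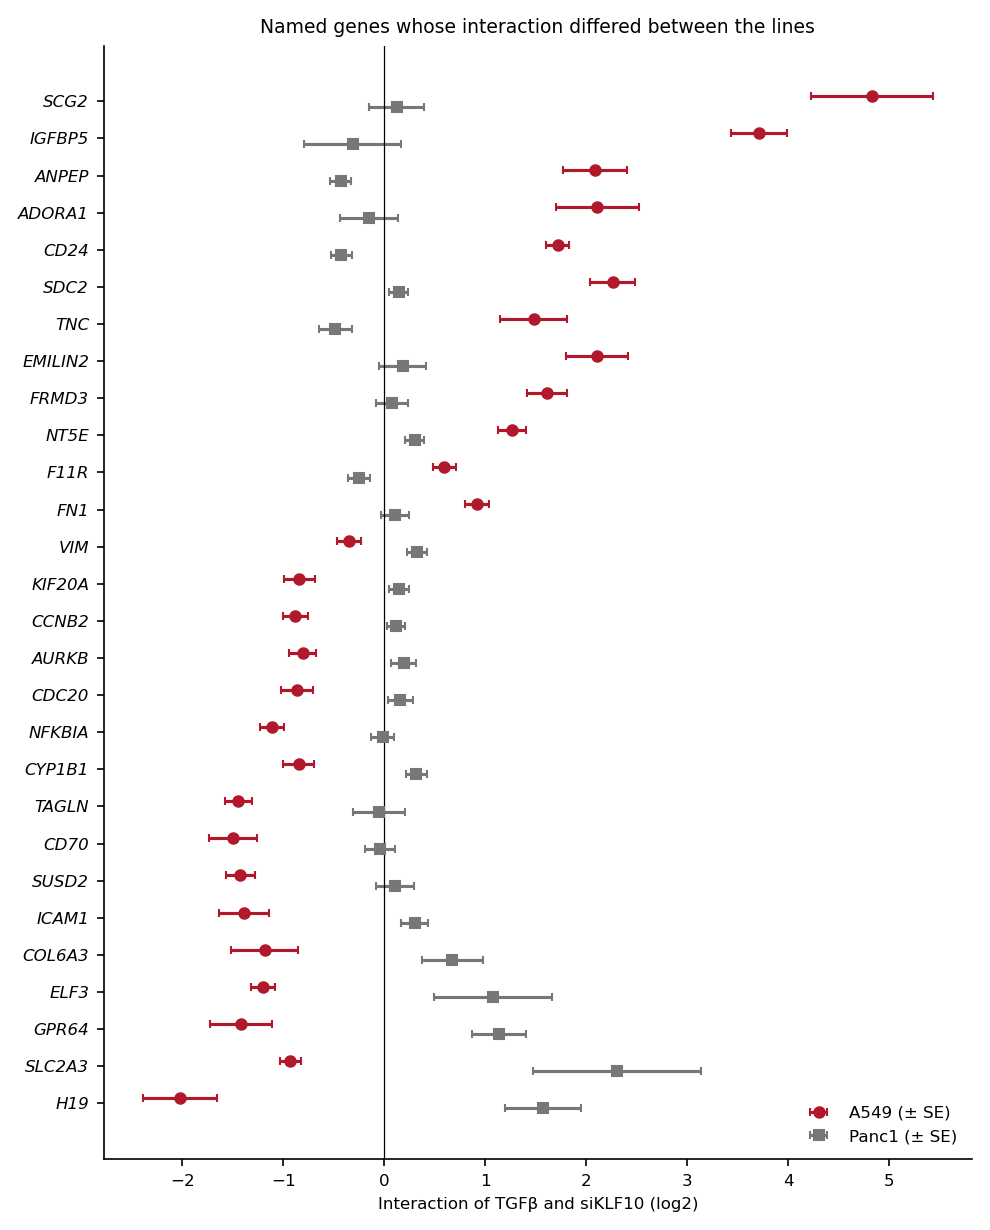
Interaction of TGFβ and siKLF10 (horizontal axis, log2, ± SE) in A549 (circles) and Panc1 (squares) for 28 named genes whose interaction differed between the lines at an adjusted p under 0.05. SCG2 is at 4.83 in A549 and 0.12 in Panc1, and TAGLN at −1.45 in A549 and −0.05 in Panc1.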

How the data were processed

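Total RNA extracted with TRIzol was made into poly(A) directional libraries, per the labels. The authors deposited raw read counts, 1 file a library, and the submitters' processing notes name DESeq2, HTSeq 0.6.0, Bowtie2 and TopHat with genome build hg19. How strand was handled in counting is not stated in the labels or notes, so overlapping, antisense and near-identical genes (such as CST1 and its family, and the CXCL chemokines) are uncertain.

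The 5 summary lines of each file, of which reads in no gene were 57.6 to 60.1% of the A549 reads, were left out. Counts were fitted with edgeR 4.0.16 in R 4.3.3 (filterByExpr with a minimum count of 10 and total of 15, TMM scaling, robust quasi-likelihood, 4 group means, 4 residual degrees of freedom), with Benjamini-Hochberg adjustment over all tested genes. CPM values are TMM-scaled, and 3 counts correspond to 0.157 to 0.438 CPM. The difference from Panc1 came from 1 model over 20 libraries with 12 residual degrees of freedom. The fit was also run on simulated counts with the same spread in every group, so that run says nothing of the wider siKLF10+TGFb spread.

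The members and lists were chosen with earlier results of these data known. The genes named were KLF10 and a fixed set of EMT and TGFβ genes, the 12 largest called interactions in each direction at an average of at least 5 CPM, and the leading 4 of each response class and list, of which only the first were printed where space asked for fewer. Some genes that this rule names are not reported here. Promoters were matched by symbol or by a single older symbol, and 300 bases, 250 before and 50 after the start site, were searched. Alternatives were size factors by RLE, other filters on low counts, DESeq2 1.42.0, limma-voom (limma 3.58.1), a replicate block, the joint fit and leaving out each library. The authors deposited log2 fold changes of group comparisons, and none of these tables holds the interaction. As a check of 2 of them across genes of at least 5 CPM, the fold change of the authors' deposited table of siKLF10+TGFb and TGFb had a correlation of 0.983 with the fitted one (11229 genes, 98.9% of the same sign). The authors' deposited table of TGFb and siControl in A549 had 0.187 (11095 genes, 55.2% of the same sign) and listed 134 such genes at a mean of 0. It does not follow the deposited counts of these libraries, which of them carries the right label was not tested, and no result uses it.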

Additional observations from a re-analysis of the deposited data

Results flagged for a closer look

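The interaction of 28 of the 62 named genes differed between A549 and Panc1 in the model over all 20 libraries, which tests the difference itself. Over all 15058 genes the difference was called for 3.99%. Many of the 62 were named for a large interaction in the same A549 libraries, which favours a called difference. Values are A549 minus Panc1 on the log2 scale, with adjusted p from edgeR's quasi-likelihood test over 15058 genes. The difference was positive for 12 genes. It was 4.76 for SCG2 (adjusted p = 7.59e-06), 4.08 for IGFBP5 (adjusted p = 0.000104), 2.59 for ANPEP (adjusted p = 2.01e-06) and 2.32 for ADORA1 (adjusted p = 0.0107). For CD24 it was 2.20 (adjusted p = 2.21e-11), for SDC2 2.18 (adjusted p = 1.37e-07), for TNC 2.02 (adjusted p = 0.00095) and for EMILIN2 1.98 (adjusted p = 0.00284). FRMD3 had 1.60 (adjusted p = 0.000108), NT5E 1.02 (adjusted p = 0.000175), F11R 0.90 (adjusted p = 0.000656) and FN1 0.87 (adjusted p = 0.0113).

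The difference was negative for 16 genes. It was −3.53 for H19 (adjusted p = 0.0299), −3.18 for SLC2A3 (adjusted p = 0.0306), −2.50 for GPR64 (adjusted p = 0.000278) and −2.22 for ELF3 (adjusted p = 0.0337). The Panc1 interactions that enter these were 2.31 ± 0.83 for SLC2A3 and 1.08 ± 0.58 for ELF3, neither of them called. The A549 interactions were −0.93 ± 0.10 and −1.20 ± 0.12. COL6A3 had −1.81 (adjusted p = 0.0221), ICAM1 −1.63 (adjusted p = 0.000233), SUSD2 −1.48 (adjusted p = 0.000245), CD70 −1.40 (adjusted p = 0.00596) and TAGLN −1.34 (adjusted p = 0.00477). For CYP1B1 it was −1.11 (adjusted p = 0.0003) and for NFKBIA −1.05 (adjusted p = 0.000192). The cell cycle genes CDC20, AURKB, CCNB2 and KIF20A had −0.97 (adjusted p = 0.00427), −0.95 (adjusted p = 0.00335), −0.94 (adjusted p = 0.00013) and −0.93 (adjusted p = 0.000549), and VIM had −0.62 (adjusted p = 0.0167).

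In 4 of these genes the interaction was called with opposite signs in the fit of A549 and in Panc1. ANPEP had 2.09 ± 0.32 in A549 and −0.43 ± 0.11 in Panc1 (Panc1 adjusted p = 0.0158), and CD24 had 1.72 ± 0.11 in A549 and −0.42 ± 0.10 in Panc1 (Panc1 adjusted p = 0.0141). GPR64 had −1.42 ± 0.31 in A549 and 1.14 ± 0.27 in Panc1 (Panc1 adjusted p = 0.0107). H19 had −2.02 ± 0.36 in A549 and 1.57 ± 0.38 in Panc1 (Panc1 adjusted p = 0.0362), and its A549 interaction was not called in the model over all 20 libraries (adjusted p = 0.151). VIM had −0.35 ± 0.11 in A549 and 0.33 ± 0.10 in Panc1, neither of them called. No group of A549 held enough libraries for a check of single libraries against their group.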

How the results depend on the processing

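None of the 916 called interactions that could be tested turned its sign under any alternative. With RLE size factors 917 interactions were called, without a filter 1236, at 1 CPM in every library 896, with limma-voom 861 and in the joint fit 903. With DESeq2, 559 were called (269 positive, 290 negative), split into 152 only after siKLF10, 217 larger, 100 smaller, 68 only against siCont and 21 opposite, and the siKLF10 difference without TGFβ was called for 1725. Without a filter 201 moved only against siCont, and in the joint fit 2 TGFβ targets were called negative. The cause was not tested. The labels give no shared batch or day for the letters A and B. The correlation of A minus B differences was 0.258 for siKLF10 with siCont, 0.153 for siKLF10+TGFb with siKLF10 and 0.147 for siKLF10+TGFb with siCont, and −0.018 to 0.012 for the other 3 pairs of groups, those with TGFb, so the letters were not taken to pair the libraries. A replicate block gave 1026 calls and kept 910 of the 916.

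Leaving out 1 library, which leaves its group with a single library assumed to vary like the others, gave 379 to 2685 interactions, 198 to 1331 positive and 177 to 1354 negative. The classes ran from 95 to 833 (only after siKLF10), 143 to 871 (larger), 62 to 310 (smaller), 44 to 453 (only against siCont) and 21 to 192 (opposite). The siKLF10 difference was called for 2237 to 5409 genes under TGFβ and 1326 to 4040 without, the TGFβ effect for 5962 to 8285 after siKLF10 and 4959 to 7771 against siCont, and the difference from Panc1 for 341 to 999. Negative calls numbered 7 to 25 in the cell cycle, 7 to 15 in the inflammatory and 1 to 10 in the TGFβ target list. Of 84 named called genes, 30 lost their call without TGFb A and 11 with DESeq2. These 84 are all the called genes that the naming rule gave, and not all of them are printed here. The shallowest library, TGFb B, held 6846761 gene counts, which limits what can be seen in genes of a few CPM.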

Other observations

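Genes chosen by their TGFβ response in Panc1 were read in A549. The 651 genes were called and moved at least 2-fold by TGFβ in Panc1 and passed the filter on low counts in A549. Of these, 55.6% had an A549 interaction in the direction of their Panc1 TGFβ effect. The median along that direction was 0.08 on the log2 scale. This means a larger effect after siKLF10 only for genes that TGFβ moved the same way in A549. The interaction was called along the Panc1 direction for 67 of them (10.3%) and against it for 38 (5.84%). All tested genes were read along their average TGFβ effect in A549 instead, so the values are not strictly alike. There the share was 55.3%, the median 0.04, and the calls 4.24% along and 2.24% against. The A549 libraries entered the choice of the 651 genes only through that filter, and did not enter their direction.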
